A study of Mus musculus with 32 samples.

Results

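The genes described here are 8 classical cadherins of the mouse, Cdh1, Cdh2, Cdh3, Cdh4, Cdh5, Cdh6, Cdh11 and Cdh15, which were taken by name from the 23154 genes listed for every cell. Single cells were picked from 8 organs or tissues of 7 C57BL/6J embryos, of which 3 were of day E9.5 and 2 each of the later days E10.5 and E11.5, with no genetic change or treatment named for any of them. E9.5 embryo 2 was labelled female and the others male. Of the 1916 sequenced cells, 1819 were kept by the study and 1815 carried one of its 4 major groups, namely 307 epithelial cells, 875 mesoderm-derived cells, 384 neuronal cells and 249 hematopoietic cells. In intestine, liver, lung and skin, 289 cells also carried the label Epi and 352 the label Mes. The heart, somite, forebrain and hindbrain were compared through their mesoderm-derived or neuronal cells.

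Classical cadherins are calcium-dependent adhesion receptors that bind cadherins of the same kind on the neighbouring cell and are tied to actin inside the cell by beta-, alpha- and p120-catenins. Cdh1 (E-cadherin) holds epithelial sheets together, Cdh2 (N-cadherin) is the main cadherin of neuroepithelium and of heart muscle, Cdh3 is P-cadherin and Cdh4 is R-cadherin. Cdh5 (VE-cadherin) joins endothelial cells, Cdh6 is K-cadherin, Cdh11 (OB-cadherin) is known from mesenchyme and bone-forming cells, and Cdh15 (M-cadherin) from muscle precursors. In the embryo, tissues that separate or migrate often change which of these genes they express, and the exchange of Cdh1 for Cdh2 is the textbook mark of an epithelial-mesenchymal transition.

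The deposited values are UMIs (tagged molecules) per 1000000 UMIs of the cell, called TPM by the authors, without correction for gene length, so levels were compared between cells and not between genes. A level is log2(TPM/10 + 1), and a cell was said to express a gene at a level of at least 1, which is 10 TPM and about 3.07 UMIs at the median depth of 306642 UMIs per cell. The embryo was the replicate, and a level of an organ is the mean of its embryos, each averaged over at least 3 cells. Depth differed between embryos, with medians from 192177 to 928653 UMIs per cell, and E9.5 embryo 2 was the deepest. E9.5 embryos 1 and 2 were labelled with an earlier HiSeq model than the other 5 embryos. In forebrain, hindbrain and heart no embryo of E9.5 was sequenced on the later machine, so that day and sequencer cannot be told apart there.

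The promoter of Cdh15 is shown because Myf5 and Myog, myogenic factors known to bind E-boxes of the form CANNTG, were among the 3 genes whose pattern was most like that of Cdh15. It is the RefSeq window from 250 bases before to 50 after the start on GRCm38.p6 (the assembly also called mm10), chr8:122848124-122848423 on the plus strand, with E-boxes in capitals. Promoters of 2 of the 8 genes, Cdh6 and Cdh15, were matched by symbol.
Cdh15 promoter: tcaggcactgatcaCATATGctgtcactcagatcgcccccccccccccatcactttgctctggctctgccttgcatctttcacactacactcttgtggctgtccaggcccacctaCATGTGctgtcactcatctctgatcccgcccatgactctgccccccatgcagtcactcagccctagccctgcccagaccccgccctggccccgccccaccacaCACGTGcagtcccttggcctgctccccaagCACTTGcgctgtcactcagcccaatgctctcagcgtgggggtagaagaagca
The window holds 4 E-boxes (CANNTG read on either strand covers the same letters), which do not overlap and whose first bases stand at -236, -135, -32 and -2 from the start. Of 32851 promoter windows of the same length, 72.3% held at least 1 such motif and 6.49% held at least 4. The match describes letters only. Positions refer to the RefSeq start, whereas the GENCODE M21 span of Cdh15 begins at 122847966, before the first base of the window.

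In GENCODE M21 coordinates of mm10, 5 of the 8 genes lie on chromosome 8. Cdh11 spans chr8:102632095-102785642 on the minus strand, Cdh5 chr8:104101625-104144511, Cdh3 chr8:106510891-106557297, Cdh1 chr8:106603351-106670246 and Cdh15 chr8:122847966-122867397, the last 4 on the plus strand. Cdh3 and Cdh1 are neighbours with 46053 bases between them, whereas 1315982 bases separate Cdh11 from Cdh5. The other 3 are Cdh2 at chr18:16588877-16809246 on the minus strand, Cdh4 at chr2:179442431-179899373 on the plus strand and Cdh6 at chr15:13028701-13173675 on the minus strand.

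The major groups differed in which cadherins they expressed, and hematopoietic cells expressed little of any of the 8. These shares are a description without a test, since the groups were made from the same cells. Cdh1 was expressed by 85.0% of epithelial cells, against 2.97% of mesoderm-derived, 0.781% of neuronal and 2.01% of hematopoietic cells. Cdh2 was expressed by 96.9% of neuronal cells, 69.8% of mesoderm-derived cells and 43.6% of epithelial cells, so it was shared by 3 groups, whereas 6.43% of hematopoietic cells expressed it. Cdh11 was expressed by 74.9% of mesoderm-derived cells, 30.5% of neuronal cells and 20.2% of epithelial cells. Cdh3 was expressed by 42.3% of epithelial and 20.2% of mesoderm-derived cells, by 1 of 384 neuronal cells and by 0 of 249 hematopoietic cells, which allows a share of up to 1.20%.

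The other 4 genes were restricted to smaller shares of cells. Cdh4 was expressed by 30.7% of neuronal cells and by 5.83% of mesoderm-derived cells. Cdh15 was expressed by 12.9% of mesoderm-derived cells and 4.17% of neuronal cells. Cdh5 was expressed by 33 of 875 mesoderm-derived cells and 8 of 249 hematopoietic cells, and Cdh6 by 25 mesoderm-derived and 22 neuronal cells. At least 1 UMI of Cdh1 was found in 9.24% of hematopoietic cells and of Cdh2 in 28.1%, at a median depth of 438183 UMIs, and after thinning every cell to 100000 UMIs these shares were 4.35% and 12.2%. In epithelial cells, whose median depth was 301723 UMIs, the thinned shares were 84.4% for Cdh1 and 49.3% for Cdh2.

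**Figure D1:**
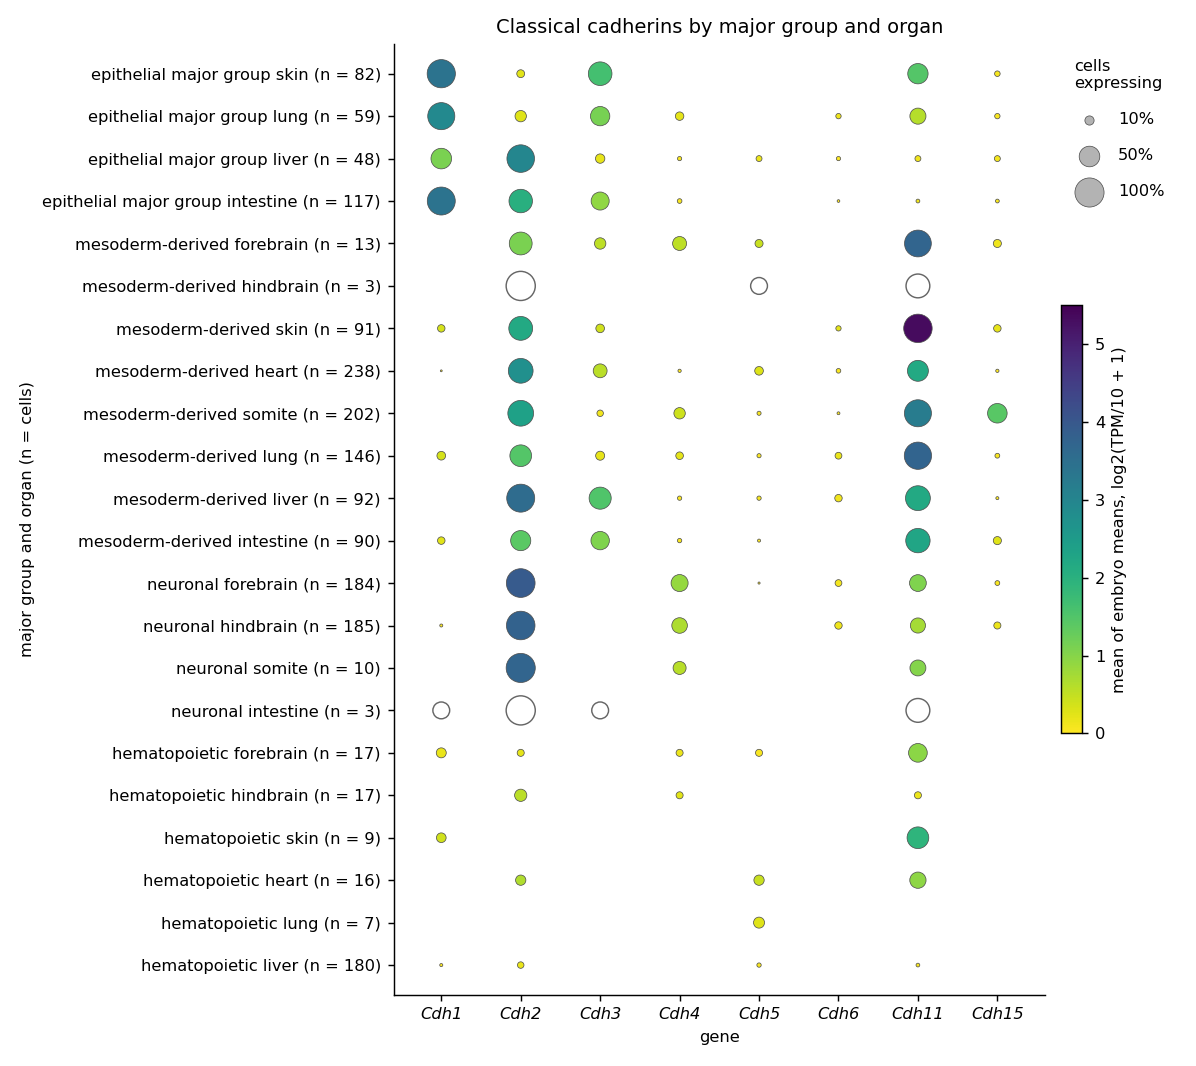
Each row is a major group in 1 organ with at least 3 cells (n is the number of cells) and each column a cadherin. The area of a circle grows with the percent of cells that express the gene, and its colour gives the mean of the embryo means on the log2(TPM/10 + 1) scale. Open circles mark groups in which no embryo had 3 cells. Cdh1 fills the epithelial rows, Cdh2 the neuronal and most mesoderm-derived rows, Cdh11 the mesoderm-derived rows, and Cdh15 stands out in 1 row, mesoderm-derived somite.

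Epithelial cells of the liver differed from those of the other 3 organs in 3 cadherins. They had less Cdh1, more Cdh2 and less Cdh3. The liver Epi cells carried hepatoblast markers, with 42 of 48 cells expressing all 4 of Afp, Alb, Ttr and Hnf4a. Of 5 epithelial markers, Epcam was expressed by 83.3% of liver Epi cells against 98.7% to 100% in the other organs. Cldn6 and Cldn7 were also expressed by a smaller share of Epi cells in liver than in each other organ. Krt8 and Krt18 were not, with 100% of liver Epi cells expressing each, against 96.2% to 100% in the other organs. Organ was a label of dissection, and each organ was compared with the mean of the other 3 by limma on embryo means with Benjamini-Hochberg adjustment, a call requiring an adjusted p below 0.05 and a difference of at least 1 on the log2 scale. The 4 contrasts share embryos and groups and are not independent of each other.

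The Cdh1 level of liver Epi cells had a lowest embryo at 0.77, a median of 0.90 and a highest embryo at 2.16, the last being E11.5 embryo 2 with 5 cells. In intestine the corresponding Cdh1 levels were 2.38, 3.65 and 4.29, in lung 2.65, 2.84 and 3.07, and in skin 3.22, 3.33 and 3.64. All 6 liver embryos were below all 19 embryo means of the other organs. The Cdh1 level in liver was 1.10 ± 0.53 (SD, n = 6), and the difference from the other organs was -2.13 (SE 0.22, limma adjusted p = 1.25e-08). By cells, Cdh1 was expressed by 24 of 48 liver Epi cells, 84.6% of lung, 92.7% of intestine and 93.7% of skin Epi cells. The Cdh1 range of intestine spanned those of lung and skin, and the lung embryos were all below the skin embryos. The differences of intestine (0.98, adjusted p = 0.00236) and of skin (0.94, adjusted p = 0.00334) missed the required size of 1 by limma.

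Cdh2 divided the epithelia into a pair with it and a pair with little of it. The Cdh2 level ran from 1.97 through a median of 3.26 to 3.72 over the liver embryos and from 1.68 through 2.08 to 2.75 over the intestine embryos. In lung it ran from 0.00 through 0.29 to 0.56, and in skin from 0.09 through 0.20 to 0.62. The lung and skin embryos overlapped with each other, and none of them reached the lowest intestine or liver embryo. Liver was higher than the mean of the other organs by 2.09 (SE 0.21, limma adjusted p = 8.68e-09), lung lower by a difference of -1.52 (SE 0.21, adjusted p = 1.53e-05) and skin lower by a difference of -1.55 (SE 0.21, adjusted p = 2.83e-06). The difference of intestine, 0.98 (adjusted p = 0.00176 by limma), was under the required size, and with the embryo as a block it was 1.05 (adjusted p = 3.01e-04). Of the Epi cells, 89.6% in liver, 66.4% in intestine, 15.4% in lung and 7.59% in skin expressed Cdh2.

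Cdh3 was highest in skin epithelium and lowest in that of the liver, where 3 of 6 embryos were at 0.00 and the highest at 0.84. The skin embryos ran from 1.33 through a median of 1.63 to 1.97, the lung embryos from 0.81 through 1.12 to 1.64 and the intestine embryos from 0.46 through 0.68 to 1.73. Liver was lower in Cdh3 by a difference of -1.03 (SE 0.19, limma adjusted p = 1.81e-04), and 5 of its 6 embryos were below every other embryo mean. Without E10.5 embryo 1 or without E9.5 embryo 2 this difference was -0.98, under the required size, at adjusted p = 0.00246 and 0.00112. Skin was higher by 0.89 (adjusted p = 0.00139), under the required size. Over cells, Cdh3 was expressed by 65.8% of skin, 44.2% of lung and 10.4% of liver Epi cells and by 44 of 110 intestine Epi cells.

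Cdh11, which was nearly absent from intestine and liver epithelium, was present in part of the skin Epi cells. Its embryo levels ran from 0.28 through 1.3 to 2.69 in skin, from 0.07 through 0.53 to 1.26 in lung, from 0.02 to 0.29 in intestine and from 0.00 to 0.24 in liver. Skin was higher by 1.15 (SE 0.23, limma adjusted p = 4.30e-04), with 3 of 6 embryos above every other embryo mean. Markers of mesenchyme moved with it, since 43 of 79 skin Epi cells (54.4%) expressed at least 3 of Col3a1, Col1a1, Col1a2, Pdgfra and Pcolce, against 1.82% in intestine, 8.33% in liver and 6 of 52 cells in lung. The summed level of these 5 genes was 3.43 to 10.8 over the skin embryos, 1.04 to 3.49 in intestine, 0.89 to 4.40 in liver and 1.44 to 4.72 in lung. Within skin, Cdh11 was expressed by 67.4% of the 43 cells with at least 3 mesenchymal markers and by 25.0% of the other 36 cells. In lung the corresponding shares were 83.3% of 6 cells and 23.9% of 46 cells. Without the Epi cells with at least 3 mesenchymal markers, a selection made after the data were seen, the skin difference in Cdh11 was 0.60 (adjusted p = 0.00997) and no longer reached the required size. The same was true without E10.5 embryo 1 (0.94) and without E11.5 embryo 2 (0.91).

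**Figure D2:**
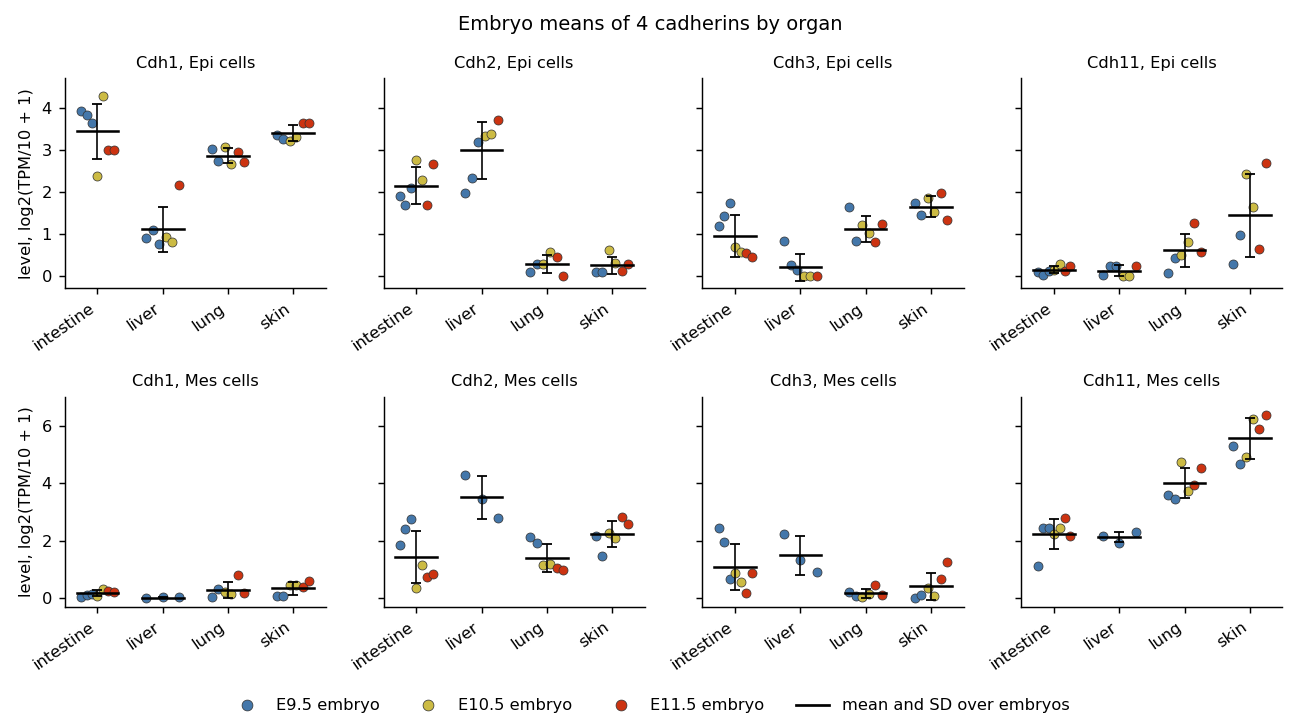
Levels of Cdh1, Cdh2, Cdh3 and Cdh11, as log2(TPM/10 + 1), in Epi cells (upper row) and Mes cells (lower row) of 4 organs. Each point is the mean of 1 embryo, coloured by day, and the bars give the mean and SD over embryos. In the upper row the 6 liver embryos lie below all others for Cdh1, and lung and skin lie near 0 for Cdh2. In the lower row skin stands highest for Cdh11, with 5 of 6 embryos above all other organs.

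Over the 4 contrasts, 7 of the 8 cadherins could be tested and 6 of their 28 tests were called (Cdh5 did not pass the filter on low values). Of all genes tested, 4.05% were called over the 4 contrasts pooled, 7.18% for liver, 2.15% for lung, 4.61% for skin and 2.26% for intestine. Among liver contrasts 3 of 7 cadherins were called, among lung contrasts 1, among skin contrasts 2 and among intestine contrasts 0, with 3 of the 7 in intestine at an unadjusted p under 0.05 and 3 called by edgeR on summed UMIs. The median difference of the cadherins was close to 0 in each of the 4 contrasts, from -0.03 to 0.07, as was that of all genes, from -0.04 to 0.00.

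Single epithelial cells that expressed both Cdh1 and Cdh2 were common in the gut and the liver and rare in the lung and the skin. In intestine 69 of 110 Epi cells expressed both (62.7%, Wilson 95% interval 53.4% to 71.2%), 33 expressed Cdh1 alone, 4 Cdh2 alone and 4 neither. In liver 22 of 48 cells expressed both (45.8%, 32.6% to 59.7%), 2 expressed Cdh1 alone and 21 Cdh2 alone. In lung 7 of 52 cells (13.5%) and in skin 6 of 79 cells (7.59%) expressed both, and Cdh1 alone was expressed by 37 lung and 68 skin cells. In skin 0 of 79 cells expressed Cdh2 alone, which allows a share of up to 3.80%. These intervals and limits cover counting error only. They treat all cells as distinct, although a pair of cells in each of intestine, liver and skin had identical levels of both genes.

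The share with both genes was close to the product of the 2 separate shares in each organ, 61.5% in intestine, 44.8% in liver, 13.0% in lung and 7.11% in skin. Where both were present in intestine, the median level of Cdh1 was 3.73 and that of Cdh2 was 2.93, and in cells with Cdh1 alone the median Cdh1 level was 3.71. In liver cells with both, Cdh1 was at 1.75 and Cdh2 at 3.23. Cells with Cdh2 alone in liver had a median Cdh2 level of 2.65 and were less deeply sequenced than cells with both, at 563313 against 828983 UMIs. Against cells with Cdh1 alone, cells with both were shallower in lung (110500 against 272277) and skin (145439 against 247896), but not in intestine (400905 against 368816). The lung and skin cells with both held median Cdh2 counts of 3 and 4.5 UMIs. They expressed on average 1.86 and 3.67 mesenchymal markers, against 0.95 and 2.40 with Cdh1 alone. The part of depth in these classes was not tested. After thinning to 100000 UMIs at least 1 UMI of each gene was found in 65.7% of intestine, 42.6% of liver, 13.0% of lung and 13.8% of skin cells.

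Over embryos, the share with both was 61.3% ± 5.36 (SD, n = 7) in intestine, 51.8% ± 24.6 (n = 6) in liver, 9.94% ± 9.52 (n = 6) in lung and 8.25% ± 11.46 (n = 6) in skin. All 7 intestine embryos lay between 53.8% and 70.8%. The liver embryos lay between 33.3% and 50% except E11.5 embryo 2, where all 5 cells expressed both. The lung embryos reached 22.2% and the skin embryos 28.6%, below every intestine and liver embryo. By a two-sided exact permutation test over embryos, adjusted over 6 pairs of organs, intestine exceeded lung by 51.4 percentage points and skin by 53.1, and liver exceeded lung by 41.9 and skin by 43.6, each at adjusted p = 0.00325. Before adjustment each of these permutation p values (0.00117 for intestine, 0.00216 for liver) was the smallest that these numbers of embryos allow. Intestine and liver differed by 9.52 points (exact permutation, adjusted p = 0.431) and lung and skin by 1.69 points (adjusted p = 0.773).

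A replicate block changed these calls. Paired by embryo, with 6 pairs for the intestine comparisons and 5 for the liver comparisons, the differences were 51.6, 53.3, 48.0 and 45.6 points, and the exact sign-flip permutation gave an adjusted p = 0.0938 for each, a design in which the smallest unadjusted p values are 0.0312 and 0.0625. Without E11.5 embryo 2 intestine exceeded liver by 17.6 points (exact permutation, adjusted p = 0.00866). When both genes had to reach a level of 2, liver exceeded lung by 12.1 points (adjusted p = 0.455) and skin by 7.27 (adjusted p = 0.608).

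**Figure D3:**
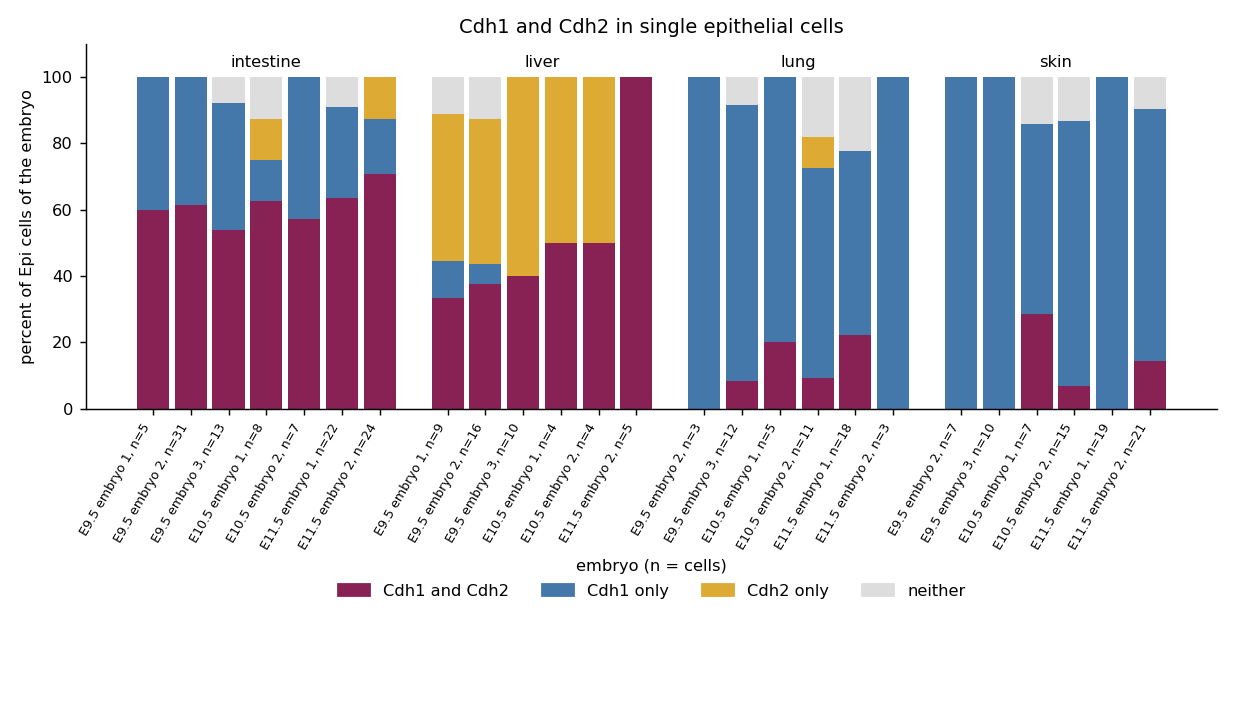
Percent of the Epi cells of each embryo that express Cdh1 and Cdh2, Cdh1 alone, Cdh2 alone or neither, by organ, with each bar adding to 100% and n the number of cells. The share with both lies between 53.8% and 70.8% in all 7 intestine embryos and reaches at most 28.6% in lung and skin, while Cdh2 alone is a large class in 5 of the 6 liver embryos.

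Outside the epithelial cells few cells reached the level of 1 for both genes. Both genes were expressed by 0 of 74 Mes cells of intestine, 0 of 76 of liver, 4 of 125 of lung and 3 of 77 of skin. They were found together in 1 of 238 heart, 0 of 202 somite, 0 of 184 forebrain, 2 of 185 hindbrain and 1 of 249 hematopoietic cells. The 0 counts of Mes intestine allow a share of up to 4.05%. After thinning, at least 1 UMI of each gene was found in 6.35% of intestine and 1.37% of liver Mes cells. The thinned share was 9.01% in lung and 14.5% in skin Mes cells. Thinned Epi shares were higher in intestine (65.7%), liver (42.6%) and lung (13.0%), but not in skin (13.8%). Epi and Mes shares were not tested against each other.

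**Figure D4:**
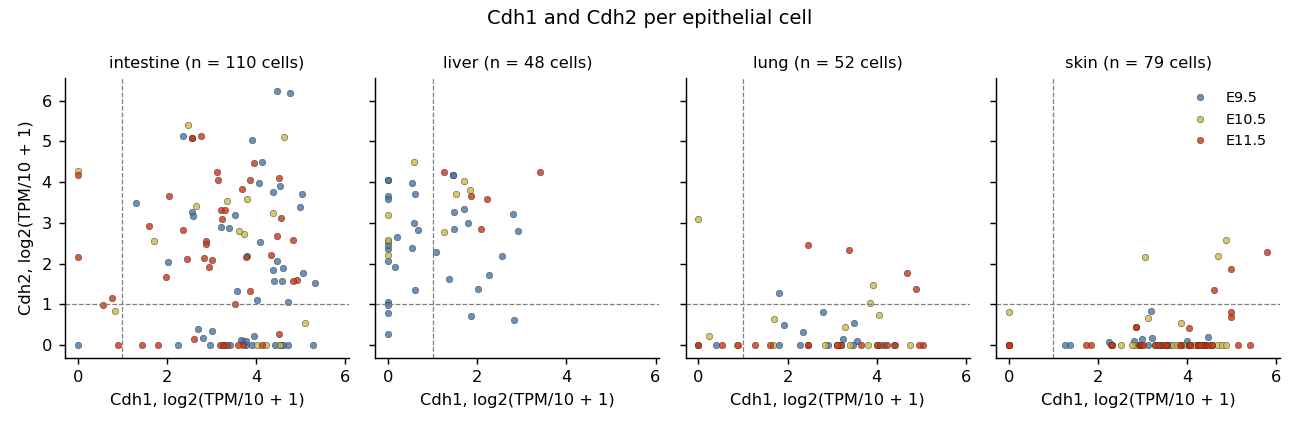
Each point is 1 Epi cell, with its Cdh1 level on the x axis and its Cdh2 level on the y axis, both as log2(TPM/10 + 1), coloured by day. Dashed lines mark the level of 1 at which a gene is said to be expressed. Intestine cells spread over the upper right field (69 of 110 cells), liver cells lie along the upper left and centre, and lung and skin cells lie along the x axis.

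Among mesoderm-derived cells, skin mesenchyme had the highest Cdh11 and somite was the place of Cdh15. Mes cells of skin, lung, liver and intestine were compared together with the mesoderm-derived cells of somite and heart, each with the mean of the other 5. Mes cells of the liver came only from the 3 E9.5 embryos, so that organ and day cannot be told apart in that contrast. Over the 6 contrasts 8 of 48 cadherin tests were called, and of all genes 1.57% were called pooled, 1.38% for intestine, 1.03% for liver, 1.05% for lung, 1.87% for skin, 2.98% for heart and 1.08% for somite.

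The Cdh11 level of skin Mes cells ran from 4.66 through a median of 5.59 to 6.36, and all 77 cells expressed the gene. In lung it ran from 3.46 through 3.84 to 4.74, in somite from 2.35 through 3.31 to 3.97, in intestine from 1.12 through 2.43 to 2.80 and in heart from 0.86 through 2.38 to 3.21. The 3 liver embryos were at 2.16, 1.93 and 2.31. Skin was higher than the other organs by 2.81 (SE 0.29, limma adjusted p = 8.86e-09), with 5 of 6 embryos above all others, while intestine, liver and heart overlapped. Intestine was lower by a difference of -1.18 (SE 0.27, adjusted p = 0.00472). The liver difference of -1.31 (SE 0.39, limma adjusted p = 0.0627), from 3 embryos, missed the threshold on p. By edgeR on summed UMIs it was -1.83 (adjusted p = 0.0148).

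Heart Cdh11 was lower by a difference of -1.25 (SE 0.29, limma adjusted p = 0.00193), but the call rested on the E9.5 embryos. They had Cdh11 levels of 1.19 and 0.86, against 2.91 and 3.21 at E10.5 and 3.05 and 1.86 at E11.5. Without E9.5 embryos 1 and 2 the difference was -0.76 (adjusted p = 0.120), and edgeR on summed UMIs gave the opposite sign, 0.18 (adjusted p = 0.787). Within the heart, Cdh11 was expressed by 27.9% of 104 cells with at most 1 of 6 epicardial markers, 47.4% of 57 cells with 2 or 3, and 87.0% of 77 cells with 4 or more. The E9.5 hearts held 13 cells of the last kind among 90, the E10.5 hearts 44 among 79 and the E11.5 hearts 20 among 69. All 13 at E9.5 expressed Cdh11, as did 37 of 44 and 17 of 20 later. Over the same 3 classes of epicardial markers, Cdh2 was expressed by 56.7%, 73.7% and 92.2% of cells and Cdh3 by 14.4%, 21.1% and 35.1%. These shares are descriptive, and the part of epicardial cells in the heart difference was not tested.

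Cdh2 was also called in 3 of the 6 contrasts, each of them close to the limits of the call. Its levels in Mes cells of the liver were 4.29, 3.44 and 2.80 in E9.5 embryos 1, 2 and 3, in which 90.8% of cells expressed it. Intestine Mes cells ran from 0.35 through 1.16 to 2.75 and lung Mes cells from 1.0 through 1.17 to 2.13, and these overlapped with the somite (1.47 to 3.13), heart (1.60 to 3.49) and skin (1.48 to 2.82). By limma, liver was higher by 1.47 (SE 0.38, adjusted p = 0.0231), intestine lower by a difference of -1.01 (SE 0.27, adjusted p = 0.0146) and lung lower by a difference of -1.05 (SE 0.29, adjusted p = 0.0283). With the embryo as a replicate block these became 1.10 (adjusted p = 0.216), -0.99 (adjusted p = 0.0127, under the required size) and -0.91 (adjusted p = 0.0748). Without E9.5 embryo 1 the liver difference was 1.13 (adjusted p = 0.373) and without E9.5 embryo 2 it was 1.56 (adjusted p = 0.0747). The intestine call was lost when E9.5 embryo 1, either E10.5 embryo or either E11.5 embryo was left out, with differences from -0.96 to -0.83. The lung call was lost without any 1 of the same 5 embryos, with differences from -1.02 to -0.92. Among all 92 mesoderm-derived cells of the liver, 25 expressed 4 or more epicardial markers. In 16 of the 92, 4 or more of the cardiomyocyte markers Tnnt2, Myh6, Myh7, Myl7, Nppa, Ttn and Nkx2-5 were expressed. The part of such cells in the liver Cdh2 difference was not tested.

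Over all days pooled, Cdh3 was expressed by 41.9% of intestine and 57.9% of liver Mes cells, against 8.00% in lung and 10.4% in skin. The order depended on day. At E9.5 it was expressed by 65.4% of intestine, 57.9% of liver and 8.62% of lung Mes cells and by 0 of 34 in skin. At E11.5 the shares were 26.7% in intestine, 9.09% in lung and 35.7% of 14 cells in skin. The slope in skin Mes cells, 0.45 per day (limma adjusted p = 0.125), was not called. The liver embryos were at 2.23, 1.32 and 0.91, within the range of the intestine embryos, 0.20 to 2.43. Liver was called higher by 1.01 (SE 0.27, limma adjusted p = 0.0309), and with the embryo as a replicate block the difference was 0.83 (adjusted p = 0.108). The Cdh3 call was also lost when 1 embryo was left out, be it E9.5 embryo 1 (0.70) or 2 (1.13), E10.5 embryo 1 (0.99) or 2 (0.98), or E11.5 embryo 1 (1.0). In liver Mes cells Cdh3 was expressed by 36.4% of 11 cells with at most 1 epicardial marker, 56.8% of 44 cells with 2 or 3 and 71.4% of 21 cells with 4 or more. The Mes cells of the intestine carried epithelial markers, with at least 3 of Epcam, Krt8, Krt18, Cldn6 and Cldn7 in 55 of 74 cells (74.3%) against 8 of 76 in liver, 16.8% in lung and 28.6% in skin. Cdh3 was expressed by 41.8% of those 55 cells and 42.1% of the other 19, and Cdh2 by 38.2% and 63.2%.

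Cdh15 was expressed by 91 of 202 mesoderm-derived somite cells (45.0%) and by at most 8.11% of the cells of any other organ in these comparisons. The somite embryos were at 0.28, 0.00 and 1.5 at E9.5, 1.98 and 1.99 at E10.5 and 1.72 and 2.57 at E11.5, and the highest embryo of any other organ was at 0.54. Somite was higher by 1.31 (SE 0.18, limma adjusted p = 7.17e-06), with 5 of 7 embryos above all others. This SE used a single variance over all the organs compared, while the SD over embryos was 0.95 in somite and 0.02 in heart. Over all 1815 cells, Cdh15 was expressed by 93.5% of the 31 cells with 4 or more of 6 skeletal muscle markers (Myod1, Myog, Myf5, Myf6, Chrna1 and Msc), by 64.7% of the 68 cells with 2 or 3 and by 3.79% of the other 1716.

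Cdh5 was a gene of a small number of cells, and 21 of the 33 mesoderm-derived cells that expressed it came from the heart. Its heart level was 0.52 and 0.69 at E9.5, 0.29 and 0.04 at E10.5 and 0.14 and 0.12 at E11.5. The heart difference of 0.25 (limma adjusted p = 0.00119) was under the required size, as was the slope of -0.24 per day (adjusted p = 7.54e-04). Among heart cells with 4 or more of 7 endothelial markers, Cdh5 was expressed by 12 of 18 at E9.5, 2 of 2 at E10.5 and 1 of 1 at E11.5. The number of endothelial cells picked per day moved with the level, and its part in the slope was not tested. In the same 21 endothelial-marker cells Cdh2 was expressed by 28.6%, against 77.0% of the 191 heart cells with at most 1 such marker.

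No cadherin was called between neuronal cells of the forebrain and the hindbrain, in which Cdh2 was the most widely expressed of the 8. Cdh2 ran from 3.04 through 4.09 to 4.27 over the forebrain embryos and from 3.29 through 3.89 to 4.24 over the hindbrain embryos, and 97.3% and 96.2% of cells expressed it. Cdh4 ran from 0.51 through 0.71 to 1.46 in forebrain and from 0.23 through 0.65 to 1.29 in hindbrain. The groups overlapped for each. In limma with embryonic day as a covariate, forebrain minus hindbrain was 0.14 for Cdh2 (SE 0.22, adjusted p = 0.846), 0.18 for Cdh4 (adjusted p = 0.745) and 0.34 for Cdh11 (adjusted p = 0.624). Cdh1, Cdh3 and Cdh5 did not pass the filter on low values there. Of the 5 cadherins tested 0 were called, 0 had an unadjusted p under 0.05 and edgeR called 0, while 0.606% of all genes tested were called by limma.

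Within the neuronal cells the share with Cdh4 differed between marker classes, which is a description without a test. Cdh4 was expressed by 44.6% of 56 cells with at most 1 of 6 neuron markers, 41.3% of 104 cells with 2 or 3 and 22.3% of 224 cells with 4 or more. By markers of neural progenitors the order was the other way, 20.6% of 34 cells with at most 1 of 5, 26.4% of 129 with 2 or 3 and 34.8% of 221 with 4 or more. Cdh2 stayed between 93.8% and 98.6% in each of these last 3 classes. Cdh6 was rare in brain, 10 of 184 forebrain and 12 of 185 hindbrain cells. Over all cells it was expressed by 25.0% of 8 cells with 4 or more of 5 neural crest markers, by 17.3% of 52 with 2 or 3 and by 2.28% of the other 1755.

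With embryonic day, Cdh15 rose in the somite and Cdh2 and Cdh3 fell in intestine Mes cells, on a slope fitted by limma in 11 groups of cells. Of 88 cadherin slopes 3 were called at an adjusted p below 0.05 and a slope of at least 0.5 per day, and of all genes 2.34% were called pooled, 0.342% in somite and 1.24% in intestine Mes cells. edgeR called 0 of the 88.

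The slope of Cdh15 in somite was 0.81 per day (SE 0.11, limma adjusted p = 1.17e-06). A single residual variance per gene served all 11 groups, so the SE was also 0.11 in intestine Epi cells. The SE and p therefore do not measure the spread of the somite embryos alone. The slope depended on E9.5 embryos 1 and 2, at 0.28 and 0.00, which were labelled with another sequencer than E9.5 embryo 3, at 1.5. Without them the slope was 0.30 (adjusted p = 0.637). The number of cells with 3 or more skeletal muscle markers also differed between embryos, and the reason was not tested. These cells numbered 0 of 24 and 0 of 26 in E9.5 embryos 1 and 2 and 8 of 31 in E9.5 embryo 3. They numbered 10 of 31 and 8 of 30 at E10.5, and 9 of 29 and 21 of 31 at E11.5. The share of such cells that expressed Cdh15 was 100% of 8 at E9.5, 83.3% of 18 at E10.5 and 93.3% of 30 at E11.5. Among somite cells with at most 2 of the markers it was 5.48% of 73, 44.2% of 43 and 56.7% of 30. Sequencer, embryo and number of muscle cells cannot be told apart among the 3 E9.5 embryos.

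In intestine Mes cells the Cdh2 level was 1.84, 2.42 and 2.75 at E9.5, 0.35 and 1.16 at E10.5 and 0.73 and 0.85 at E11.5, so that all 3 embryos of the first day were above all later ones. The slope was -0.82 per day (SE 0.20, limma adjusted p = 0.00985). It was -0.75 (adjusted p = 0.0535) without E9.5 embryo 2, -0.67 (adjusted p = 0.0738) without E9.5 embryo 3 and -0.84 (adjusted p = 0.111) without E9.5 embryos 1 and 2. The Cdh3 level was 2.43, 1.95 and 0.68 at E9.5, 0.86 and 0.55 at E10.5 and 0.20 and 0.89 at E11.5, with a slope of -0.59 (SE 0.14, adjusted p = 0.00662). Here the first 2 embryos were high and E9.5 embryo 3 was not, and without E9.5 embryos 1 and 2 the slope was -0.08 (adjusted p = 1.0). Without E9.5 embryo 1, E9.5 embryo 2 or E11.5 embryo 1 alone the Cdh3 slope was -0.38, -0.50 and -0.51, with adjusted p from 0.0892 to 0.190.

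In epithelial cells 0 of the cadherin slopes were called by limma and 0 by edgeR, with 2 of 8 at an unadjusted p under 0.05 in intestine, 3 in liver, 1 in lung and 0 in skin. Of all genes, 1.94%, 2.24%, 2.43% and 2.7% of these slopes were called in the same order. An unadjusted p under 0.05 was found for 2228, 2601, 2694 and 2547 of 16962 genes. In intestine Epi cells, as in intestine Mes cells, Cdh3 was lower after E9.5. Its Epi level was 1.19, 1.43 and 1.73 at E9.5, 0.68 and 0.58 at E10.5 and 0.53 and 0.46 at E11.5. This Cdh3 slope of -0.497 per day (limma adjusted p = 0.0216) was just under the required size. Without E9.5 embryos 1 and 2 it was -0.55. The slope of Cdh1 was -0.40 per day in intestine (adjusted p = 0.0509) and 0.49 in liver (adjusted p = 0.0337, under the required size). Their difference of -0.90 (SE 0.19, limma adjusted p = 0.00117) was the 1 called among 56 differences of cadherin slopes, where 2.16% were called over all genes. It rested on E11.5 embryo 2, the only liver embryo of that day, and without it the difference was -0.36 (adjusted p = 0.795). In hindbrain the Cdh4 level was 1.0 and 1.29 at E9.5, 0.68 and 0.61 at E10.5 and 0.23 and 0.27 at E11.5, with no overlap between days. Its slope of -0.45 (adjusted p = 0.00884 by limma) passed the threshold on p and was under the required size.

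**Figure D5:**
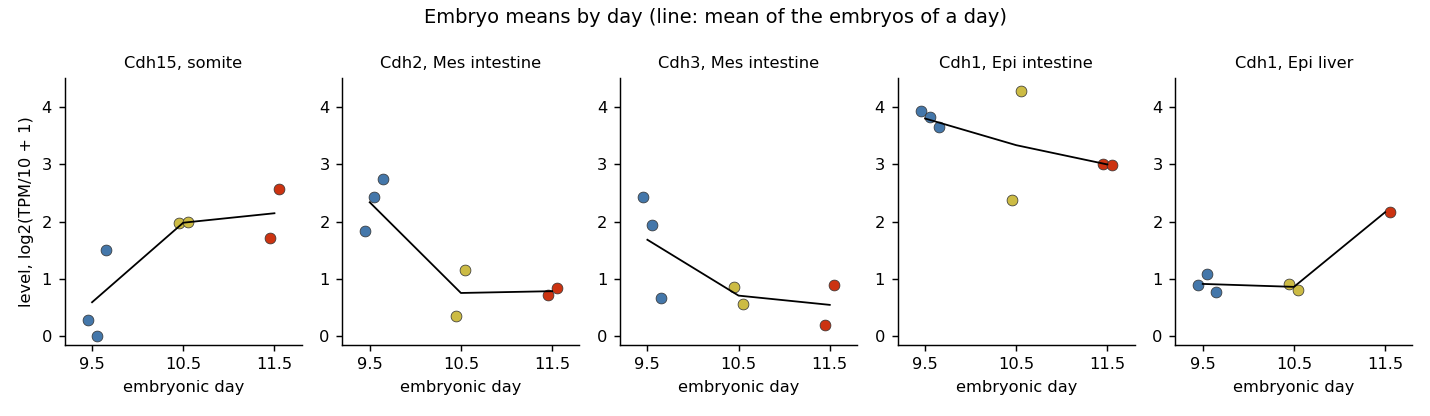
Embryo means of the log2(TPM/10 + 1) level against embryonic day for the 3 called slopes and for Cdh1 in Epi cells of intestine and liver. Each point is 1 embryo, coloured by day, and the line joins the means of the days. Somite Cdh15 is at 0.28, 0.00 and 1.5 at E9.5 and between 1.72 and 2.57 later. Liver Cdh1 stays between 0.77 and 1.08 until the single E11.5 embryo at 2.16.

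Other genes of the adhesion pathway were given by lists. Of 13 further cadherins, all measured, 0 were called by limma in any organ contrast or slope, although 5 of 28 epithelial and 14 of 54 mesoderm-derived tests had an unadjusted p under 0.05 and edgeR called 5 and 10 of these. In forebrain against hindbrain 2 of 8 and among slopes 20 of 132 had an unadjusted p under 0.05, and edgeR called 0. Of the catenins and junction partners, 16 were measured and 6 of 60 epithelial organ tests were called, against 4.05% of all genes. Liver Epi cells were lower in Ctnna1, the alpha-E-catenin that links the complex to actin (-1.27, SE 0.21, adjusted p = 2.98e-05), in Arvcf, a relative of p120-catenin (-1.04), and in Mllt4, the nectin-binding afadin (-1.07). Skin Epi cells were higher in Ctnnal1 (1.55), in Ctnnd2 (1.01) and in Jup, the gamma-catenin plakoglobin (1.04). In mesoderm-derived cells 2 of 90 tests were called, near the 1.57% of all genes, with Pvrl2 lower in lung (-1.05) and Ctnna2 higher in skin (1.05). Of their slopes on day limma called 11 of 176, 5 up and 6 down, against 2.34% of all genes, and edgeR called 0. Between forebrain and hindbrain 0 of 15 were called, with 0 at an unadjusted p under 0.05 and 0 by edgeR.

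Of the 6 transcription factors known as repressors of Cdh1, 7 of 36 tests were called between mesoderm-derived organs, where 1.57% of all genes were, and 1 of 24 between epithelial organs, near the 4.05% of all genes. The 1 in epithelial cells was Snai2, higher in skin by 1.76 (SE 0.16). Skin Mes cells were higher in Twist1 (2.23) and Twist2 (1.04), intestine Mes cells in Twist2 (1.32), and lung Mes cells in Snai1 (1.66) and Zeb2 (1.03). Lung Mes cells were lower in Twist1 (-1.42) and heart cells in Twist2 (-1.75). Of the slopes of these 6 genes limma called 3 of 66, against 2.34% of all genes, and edgeR called 0. By limma Snai1 (-0.87) and Twist2 (-0.82) fell in intestine Mes cells and Twist1 rose in skin Mes cells (0.71). Between forebrain and hindbrain 0 of 6 were called by limma and 0 by edgeR. An unadjusted p under 0.05 was found for 2 of the 6, against 1746 of 14200 over all genes.

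The genes whose pattern was most like that of each cadherin were ranked by Pearson r over 89 embryo means of 20 groups (major group by organ) among 10508 genes. The points share embryos, and r is a description. Cdh1 was most like Cldn7 (0.95), a tight junction claudin, Spint1 (0.94) and Ap1m2 (0.93). Cdh11 was most like Col1a2 (0.91), S1pr3 (0.90) and Col3a1 (0.90), and Cdh15 like Mrln (0.96), Myf5 (0.95) and Myog (0.95), the last 2 being myogenic regulators. Cdh3 was nearest to Tmem88 (0.77), Bcam (0.77) and Fras1 (0.75), and Cdh4 to Fam181b (0.72), Kif1a (0.71) and Cntnap2 (0.68). The values were lower for Cdh2, with Kif1b (0.69), Med22 (0.68) and Bex2 (0.65), for Cdh5, with the endothelial genes Eng (0.68) and Pecam1 (0.60) and with Ttn (0.59), and for Cdh6, with Zfpm2 (0.53), Lef1 (0.51) and Lamb2 (0.51).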

How the data were processed

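Single cells were picked by mouth pipette, their RNA was tagged with cell barcodes and UMIs, and the libraries were sequenced. Per the submitters' processing notes the tools were CASAVA 1.8, TopHat2 2.0.12 and HTSeq with build mm10. The deposited TPM values are UMIs per 1000000 UMIs of the cell, that is CPM, made by the authors without correction for gene length. Whole UMIs were recovered for 100.0% of the values above 0 (within 0.05 UMIs), and the totals equalled those of the study's cell table in all 1916 cells. That table gave each cell's kept status, major group, Epi or Mes label, organ and embryo. Cells had been filtered by the study, kept cells held 20326 to 2524348 UMIs, 228 of them under 100000, no cell name was shared between files and no doublet caller was run. Pairs of Epi cells had identical Cdh1 and Cdh2 levels in liver at E9.5 (1.47 and 4.18), intestine at E11.5 (2.56 and 5.07) and skin at E11.5 (2.85 and 0.45). Whether such a pair is a cell entered under different names was not tested, and both were counted. The position of reads within a gene and overlap with other genes could not be checked in a gene table.

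Levels are log2(TPM/10 + 1), with a pseudocount of 10 TPM, averaged per embryo over at least 3 cells. limma 3.58.1 (R 4.3.3, eBayes with trend) was fitted over all genes expressed by at least 3 cells, 14414 in epithelial, 15597 in mesoderm-derived and 14200 in neuronal cells and 16962 for slopes, with Benjamini-Hochberg adjustment within each contrast. Shares of cells were compared by exact permutation over embryos. The alternatives were a pseudocount of 1, no gene filter, at least 5 cells per mean, 1 embryo or E9.5 embryos 1 and 2 left out, thinning to 100000 UMIs, the embryo as a block, and edgeR 4.0.16 quasi-likelihood on UMIs summed per embryo, which called 5872 epithelial, 6907 mesoderm-derived, 200 neuronal and 960 slope tests. Each limma fit used a single residual variance per gene over all its groups of cells. The slopes were not fitted with the embryo as a block. The script was tested on simulated data. Python 3.11.15, numpy 2.4.6, pandas 2.3.3 and scipy 1.17.1 were used otherwise.

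The numbers pair samples because cells of different organs came from the same embryo. Same-embryo deviations correlated at -0.11 to 0.25 over 31 pairs of epithelial organs, -0.10 to 0.41 over 71 pairs of mesoderm-derived ones and -0.22 to 0.36 over 6 neuronal ones. All 8 members are named, as are the called genes of 3 lists (further cadherins, catenins and junction partners, repressors of Cdh1) and the 3 genes most like each member. Members, lists and tests were chosen with earlier results of these data known. Major groups and Epi or Mes labels were made from the same cells, so they were not tested against each other.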

Additional observations from a re-analysis of the deposited data

Results flagged for a closer look

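Of 28 groups of at least 4 embryos examined for a sample far from the others, 4 held one by Dixon's criterion. Chance meets it in about 1 of 20 groups when the embryos of a group are alike, whereas these groups mix embryonic days. The liver values below come from the same cells of the same embryo and are not separate findings. In Epi cells of the liver, the Cdh1 level of E11.5 embryo 2 was 2.16, with the other 5 embryos between 0.77 and 1.08. In the same embryo 100% of the liver Epi cells expressed both Cdh1 and Cdh2, against 33.3% to 50% in the others. That embryo gave 5 such cells and was the only E11.5 embryo with liver Epi cells in the comparison. In Mes cells of the intestine, the Cdh11 level of E9.5 embryo 1 was 1.12, with the other 6 between 2.16 and 2.80. In neuronal cells of the forebrain, the Cdh2 level of E11.5 embryo 2 was 3.04, with the other 5 between 3.90 and 4.27.

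The change of Cdh1 with embryonic day differed between Epi cells of the intestine and of the liver, at -0.40 and 0.49 per day, by a limma test of the difference itself (-0.90, adjusted p = 0.00117). Without E11.5 embryo 2 the difference was -0.36 (adjusted p = 0.795), and edgeR gave -0.88 (adjusted p = 0.841).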

How the results depend on the processing

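In Epi cells the calls of Cdh1 and Cdh2 in liver and of Cdh2 in lung and skin held in all 15 alternatives run. Cdh11 in intestine and skin Mes cells and Cdh15 in somite held in all 14. Cadherin tests called numbered 6 in epithelial cells, 12 with log2(TPM + 1), 11 with edgeR and 5 to 8 with 1 embryo left out. In mesoderm-derived cells they numbered 8, 4 without E9.5 embryos 1 and 2, 5 after thinning, 15 with edgeR, 4 with the replicate block and 4 to 8 with 1 embryo left out. In brain they numbered 0 throughout. Slopes called numbered 3, 7 with log2(TPM + 1), 1 without E9.5 embryos 1 and 2, 0 with edgeR and 2 to 4 with 1 embryo left out. The cause of these shifts was not tested.

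Over all genes, calls were 2336 in epithelial cells (6360 with log2(TPM + 1), 5872 with edgeR, 2212 to 2557 with 1 embryo left out), 1466 in mesoderm-derived cells (4482, 6907, 1334 to 1545), 86 in brain (205, 200, 67 to 94, and 43 without the gene filter) and 4366 for slopes (7136, 960, 2485 to 5704, and 1580 without E9.5 embryos 1 and 2). The slope count of 2485 was that without E9.5 embryo 2.

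Heart Cdh11 turned from -1.25 to 0.18 with edgeR (adjusted p = 0.787). For the share of cells with Cdh1 and Cdh2, intestine minus liver was 9.52 points, 35.9 at a level of 2 (adjusted p = 0.0163, exact permutation), 16.7 after thinning (adjusted p = 0.0406) and 6.04 to 17.6 with 1 embryo left out. At a level of 2, liver minus lung was 12.1 points and liver minus skin 7.27. With the replicate block, intestine minus lung was 51.6, intestine minus skin 53.3, liver minus lung 48.0 and liver minus skin 45.6. With 1 embryo left out these 4 were 47.8 to 53.5, 51.0 to 56.9, 30.2 to 45.6 and 35.1 to 48.0, and lung minus skin was -2.42 to 4.88. Among organ contrasts the block lost the limma calls of Cdh2 in intestine, liver and lung Mes cells and of Cdh3 in liver Mes cells. It lost no other cadherin call there and gained Cdh2 in intestine Epi cells. The slopes were not fitted with a block.

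Depth limits the sparse genes most. At 10 TPM a cell at the median depth holds about 3.07 UMIs, 228 kept cells held under 100000 UMIs, and Cdh5 and Cdh6 rested on few cells. Up to 3 embryos per day and 3 to 7 per organ set the precision, and E9.5 embryo 2 was both the deepest and, with E9.5 embryo 1, from the other sequencer.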

Other observations

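Cdh11 was also expressed by 21 of 249 hematopoietic cells, and unevenly over organs. In the liver, which gave 180 of these cells, the share was 1.67%, while in the skin 5 of 9, in the forebrain 7 of 17 and in the heart 5 of 16 cells expressed it. By the macrophage markers Csf1r, Cx3cr1, Ptprc, C1qa and C1qb, Cdh11 was expressed by 8 of 32 hematopoietic cells with 4 or more, 4 of 13 with 2 or 3 and 9 of 204 with at most 1. All 9 hematopoietic skin cells had 4 or more. By the 5 mesenchymal markers it was expressed by 2 of 4 cells with 4 or more, 9 of 17 with 2 or 3 and 10 of 228 with at most 1. The part of mesenchymal RNA in these Cdh11 counts was not tested.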
